A study of Mus musculus with 9 samples.

Results

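Mouse epiblast stem cells exposed to CHIRON for 48 h were compared with untreated cells sorted as dsRed2 negative, on 6 of the 9 arrays of the series. The 6 arrays were chosen by their labels, 3 CHIRON-treated and 3 dsRed2 negative, and the 3 arrays of dsRed2 positive cells were left out. All cells were male, of a 129 background, and carried a dsRed2 fluorescent reporter. The medium of all groups contained activin A at 20 ng/ml and bFGF at 10 ng/ml, and CHIRON was given at 3 µM. The control cells were the reporter-negative fraction of an untreated culture. The labels do not settle whether treated cells were sorted too, so the effects of treatment and of sorting cannot be told apart. What drives dsRed2 is not named in the labels, and the number of independent lines is not given. The arrays measure bulk RNA, in which more cells of a type and more RNA per cell cannot be told apart.

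Epiblast stem cells are derived from the epiblast after implantation and depend on activin and FGF signals. CHIRON is the common short name of an inhibitor of the kinase GSK3. GSK3 marks β-catenin for breakdown, and when it is inhibited β-catenin enters the nucleus and activates genes together with TCF/LEF factors, as Wnt ligands do through Frizzled receptors. In the embryo, Wnt signalling together with Nodal, a ligand of the activin pathway, starts the primitive streak at the posterior side of the epiblast. Cells that pass through the streak become mesoderm and definitive endoderm, its anterior end forms the organizer, and its caudal end feeds the growing trunk.

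Levels are given as normalized log2 intensities, so that a difference of 1 is 2-fold, and levels of different genes are not compared. Median probe signals ran from 95.1 to 109 over the 6 arrays. A probe counted as detected at a detection p below 0.05, which held for 36.7% to 41.1% of probes. The lowest detected signal of an array lay between 4.63 and 4.78, and the number of arrays rather than a read depth limits the precision. Treated replicates 1 and 2 lay close together, with an SD of 0.17 for their log2 difference over the 9938 genes detected on all 6 arrays and 0 genes more than 2-fold apart. Treated replicate 3 differed from them with SDs of 0.44 and 0.45, and 375 and 378 genes were more than 2-fold apart. Pairs of negative arrays had SDs of 0.31 to 0.37 and 58 to 171 such genes. Whether treated replicates 1 and 2 were separate cultures is not stated beyond their label as biological replicates. The tests therefore measure the spread between these arrays, which may be partly technical.

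The genes chosen as marks of the response separated the groups on every array. They were chosen with earlier results of these data known, so their separation and adjusted p-values are descriptions and not separate support. T, the brachyury factor of nascent mesoderm, was at 12.19, 12.05 and 11.32 on treated replicates 1, 2 and 3 and at 5.34, 7.15 and 6.16 on negative replicates 1, 2 and 3. The lowest treated array thus stood far above the highest negative array, and T rose by 5.64 ± 0.42 (log2 difference ± SE from the model, n = 3 arrays per group; limma adjusted p = 6.31e-05). Lhx1, a LIM homeobox factor of the organizer, was at 11.79, 11.73 and 11.36 on treated and 4.26, 4.81 and 4.85 on negative arrays, of which 2 detected it. Lhx1 rose by 6.99 ± 0.20 (adjusted p = 5.42e-07), a size that rests on negative values near background. Sox17, a factor of definitive endoderm, was at 9.97, 9.90 and 9.03 on treated arrays and was detected on no negative array. For genes undetected in a whole group only a minimum fold can be had, set against the lowest detected signal, and Sox17 rose at least 29.9-fold (adjusted p = 4.33e-06). Such genes passed the detection filter through 1 group alone. Their adjusted p-values, here and below, set a signal against background and are not separate support for a difference. In the opposite direction, Nanog, a core pluripotency factor, was at 7.48, 7.47 and 6.78 on treated and 10.71, 10.38 and 10.95 on negative arrays. Nanog fell by 3.43 ± 0.23 (adjusted p = 3.6e-05) and stayed detected on all treated arrays. Utf1, a chromatin factor of pluripotent cells, was at 7.14, 7.39 and 6.75 on treated and 10.89, 10.69 and 10.56 on negative arrays, and fell by 3.62 ± 0.18 with no overlap between groups (adjusted p = 8.79e-06).

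**Figure D1:**
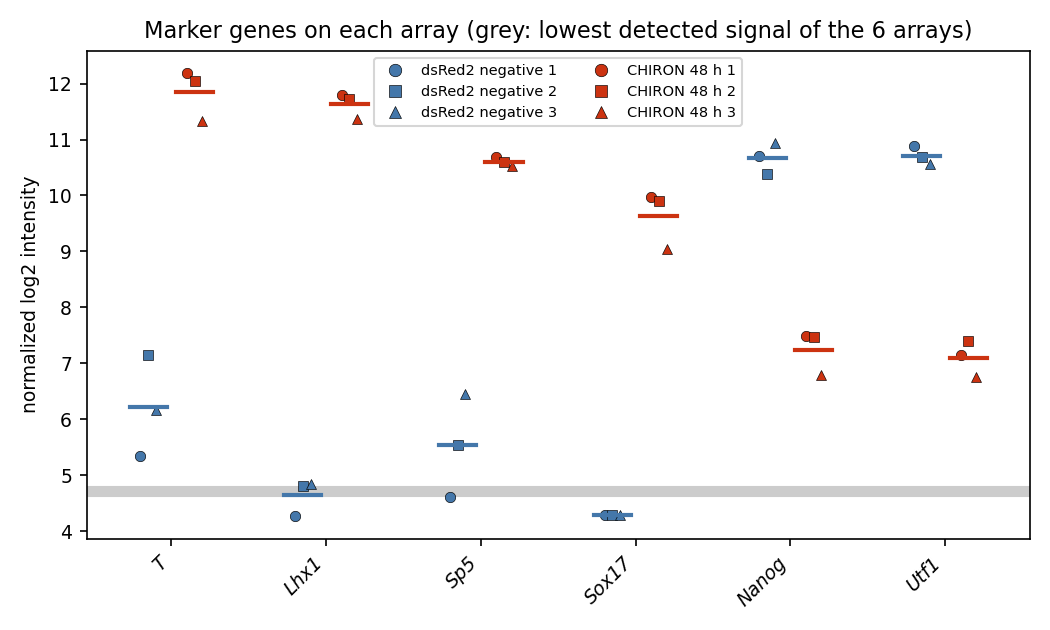
Normalized log2 intensity (y axis) of 6 marker genes (x axis) on each of 3 dsRed2 negative arrays (blue) and 3 CHIRON arrays (red); symbols mark the replicate, horizontal bars the group means, and the grey band the range of the lowest detected signals, 4.63 to 4.78. T, Lhx1, Sp5 and Sox17 lie higher and Nanog and Utf1 lower on all 3 treated arrays, with no overlap between groups.

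Sp5 encodes a zinc finger factor that is switched on directly by β-catenin and TCF/LEF. It was at 10.69, 10.61 and 10.52 on treated arrays and at 4.61, 5.54 and 6.45 on negative arrays, of which 2 detected it. The negative arrays spread widely but all lay below the treated arrays, and Sp5 rose by 5.07 ± 0.39 (adjusted p = 6.82e-05). The promoter window of Sp5 from RefSeq (GRCm38.p6, chr2:70474673-70474972, plus strand; 250 bases before to 50 after the start, 5′ to 3′ along the gene) is shown because it was the only one among Wnt targets that rose to hold the TCF/LEF word. Capitals mark CTTTGAT at −104 to −98 from the start.
Sp5: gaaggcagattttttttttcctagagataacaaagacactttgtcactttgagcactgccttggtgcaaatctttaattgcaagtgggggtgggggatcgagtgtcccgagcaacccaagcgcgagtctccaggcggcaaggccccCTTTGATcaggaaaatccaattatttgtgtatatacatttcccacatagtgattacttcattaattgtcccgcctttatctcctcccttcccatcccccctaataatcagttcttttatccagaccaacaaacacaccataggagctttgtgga
The word CTTTGAT, searched on both strands (ATCAAAG on the other), occurred in 3.72% of all 27025 RefSeq promoter windows and in 2.44% of the 8319 that matched a tested gene. It was in 2.37% of windows of genes called higher and in 1 of 7 windows of Wnt target genes called higher. A match is a description of letters in this window and not a site shown to be bound, and TCF/LEF sites further away were not searched.

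In all, 12555 genes were tested and limma called 4851 of them at an adjusted p below 0.05, which is 38.6%. Of these 2476 were higher (19.7%) and 2375 lower (18.9%) in treated cells, and 823 (6.56%) rose and 811 (6.46%) fell at least 2-fold. Treated arrays lay above all negative arrays for 26.9% of genes and below them for 25.7%, together 52.7%. The lists of genes below are given beside these shares. The lists were chosen with earlier results of these data known, so their counts are descriptions and not separate support. Some genes are in several lists, such as T among streak and growth zone genes, so the counts of different lists are not independent. With each array scaled by its median in place of quantile normalization, 3458 genes were called, 2410 higher and 1048 lower. That scaling moved the median of all genes by 0.17 and the share of higher calls from 51.0% to 69.7%, so the number of falls depends on the scaling. With treated replicates 1 and 2 averaged as 1 sample, 3873 genes were called. Lists below are counted over members detected on all 6 arrays, because a gene detected only in treated cells passed the detection filter only by being higher there. Among the 9938 genes detected on all 6 arrays 39.5% were called, 19.3% higher and 20.2% lower, with 5.56% and 6.79% at least 2-fold higher and lower.

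**Figure D2:**
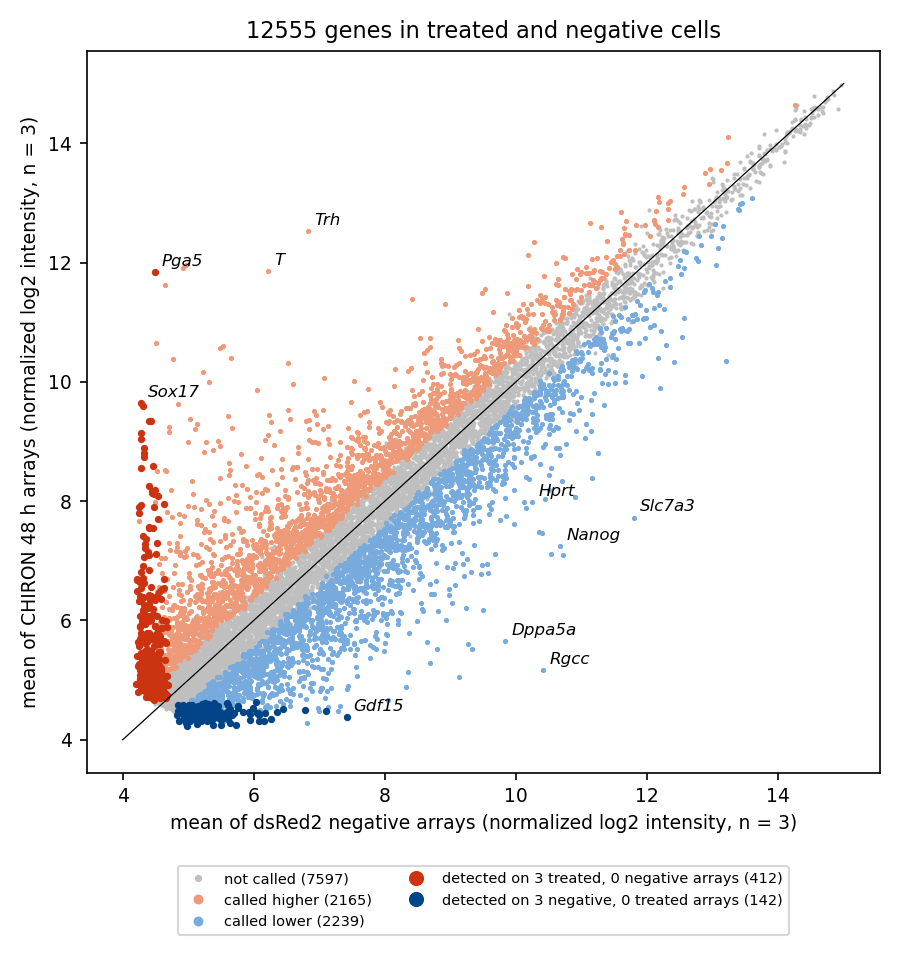
Mean normalized log2 intensity of 3 CHIRON arrays (y axis) against that of 3 dsRed2 negative arrays (x axis) for the 12555 genes tested; colours mark genes called higher or lower, and darker points genes detected on all arrays of only 1 group. The 412 genes detected on treated arrays alone form a column at the left, and the 142 detected on negative arrays alone a row at the bottom.

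Genes detected on all 6 arrays with the largest rises had various roles. Trh, which encodes thyrotropin-releasing hormone, was at 12.98, 13.02 and 11.57 on treated and 8.07, 6.61 and 5.82 on negative arrays. Every treated array exceeded every negative one, and Trh rose by 5.69 ± 0.58 (adjusted p = 0.000261). Sox9, an HMG-box factor of notochord and gut progenitors, was at 10.00, 10.09 and 10.38 and 5.36, 4.88 and 5.43, a rise of 4.93, with a second passing probe at 1.71. Lgals3, the galectin-3 gene, was at 10.34, 10.44 and 10.42 against 5.46, 6.11 and 5.39 and rose by 4.75 ± 0.20 (adjusted p = 3.53e-06). Trh was lower on treated replicate 3 than on the other treated arrays and spread widely over the negative arrays, and the other 2 genes varied little. Further rises were those of Flrt3, a cell surface protein with leucine-rich repeats (4.11), Hs3st3b1, a heparan sulfate sulfotransferase (3.58), Flt1, a VEGF receptor (3.56), the kinase gene Dapk2 (3.73; second probe 1.35) and the pseudogene Pisd-ps2 (3.81).

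Detected on all 3 treated and no negative array were 412 genes, 3.28% of those tested. They passed the detection filter only through treated cells, so their adjusted p-values are not separate support for a rise. Pga5, the gene of the stomach protease precursor pepsinogen, was at 11.91, 11.85 and 11.77 on treated arrays and at 4.31, 4.55 and 4.61 on negative arrays. It rose at least 138-fold (adjusted p = 6.51e-08). Gata6, a GATA factor of endoderm and mesoderm, rose at least 24.3-fold from 4.38, 4.33 and 4.58 to 9.40, 9.43 and 9.20, Klhl6, a kelch-like gene, at least 24.3-fold, Foxa1, a forkhead factor of endoderm, at least 19.8-fold, and H19, an imprinted noncoding RNA of embryonic mesoderm and endoderm, at least 17.9-fold. Shh, the ligand secreted by the notochord, rose at least 16-fold by its brightest probe, with a second probe at 2.03 on the log2 scale. On the other side, 142 genes (1.13%) were detected on all 3 negative and no treated array, and the same limit holds for their falls. Gdf15, a stress-induced cytokine of the TGF-β family, was at 7.15, 7.18 and 7.94 on negative and 4.35, 4.55 and 4.25 on treated arrays and fell at least 6.81-fold (adjusted p = 5.37e-05). H2-M2, a nonclassical MHC class I gene, was at least 5.44-fold lower, and Nxnl2, a thioredoxin-like gene, at least 3.46-fold lower. The meiotic genes Kash5, of the link between telomeres and the nuclear envelope, and Meiob, a single-stranded DNA-binding protein, were at least 3.03-fold and 2.69-fold lower. Nanogpd, a Nanog pseudogene whose probe may share sequence with Nanog, was at least 3.25-fold lower. Chd5, a chromatin remodeller, was at least 2.63-fold lower, Rnf207, a RING finger gene, at least 2.52-fold, Tmem269 at least 2.68-fold and Psors1c2 at least 2.65-fold, the last a call lost with no filter on detection (adjusted p = 0.0584).

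Among Wnt pathway components, feedback genes rose together with several ligands and receptors. Of 11 feedback and direct target genes 6 rose and 2 fell, with a median of 1.24, and of 13 ligands and receptors 7 rose and 1 fell, with a median of 0.83. For comparison, the median over all genes detected on 6 arrays was −0.02. Axin2, a scaffold of the β-catenin destruction complex that the pathway itself induces, was at 8.33, 8.32 and 8.99 on treated and 6.73, 6.47 and 6.56 on negative arrays. All treated arrays were higher and replicate 3 was the highest, and Axin2 rose by 1.96 ± 0.20 (adjusted p = 0.000251). Nkd1, an inhibitor of Dishevelled, rose by 2.03 (second probe 0.56), Apcdd1, an inhibitor at the membrane, by 1.82, and Ccnd1, the cyclin D1 gene, by 1.95. Dkk1, a secreted antagonist that binds the co-receptor LRP6, was at 8.18, 7.85 and 7.91 on treated arrays and was detected on 1 of 3 negative arrays. Sfrp1, a secreted Wnt-binding protein, rose by 1.53, and Tnfrsf19 by 1.08. Lef1, a nuclear partner of β-catenin, rose at least 1.82-fold and Lgr5, a receptor of R-spondins, at least 2.26-fold, both detected on no negative array, whereas Tcf7, another nuclear partner, differed by −0.25 (adjusted p = 0.224). The 2 that fell encode the Dickkopf receptors, Kremen2 (−0.81) and Kremen1 (−0.54). Both calls were lost with median scaling (adjusted p = 0.06 and 0.358), and that of Kremen1 also without treated replicate 1 (0.0663) or negative replicate 3 (0.0525).

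The ligand genes went different ways. Wnt5a, a ligand of the non-canonical pathway and of the tail bud, was at 8.25, 8.12 and 9.30 on treated arrays and on no negative array, at least 14.1-fold higher by its brightest probe (adjusted p = 3.6e-05), while a second probe differed by 1.82. Wnt5b rose by 1.60 and their receptor Ror2 by 1.40 ± 0.12 (adjusted p = 0.000132). By contrast Wnt3, the ligand that acts at the start of the streak, was at 5.27, 5.59 and 6.76 on treated and 4.82, 5.16 and 5.61 on negative arrays, so that the groups overlapped (adjusted p = 0.181). Wnt8a likewise overlapped, at 7.65, 7.5 and 6.26 against 6.47, 7.17 and 8.09 (adjusted p = 0.878). Wnt4 was lower (−1.63, adjusted p = 0.0277), a call lost under 8 of 18 alternatives, among them the omission of treated replicate 1 or 2 or of negative replicate 2 or 3 (adjusted p up to 0.125 over all alternatives). Rspo3, a secreted enhancer of Wnt signalling, was at 9.23, 9.15 and 8.17 against 5.65, 4.95 and 5.52 and rose by 3.48 ± 0.30 (adjusted p = 0.000132; second probe 2.03). Of the Frizzled receptors, Fzd5 rose the most, by 2.98 ± 0.16 (adjusted p = 9.79e-06), though its other probes gave 0.50 and 1.69, and Fzd10 rose by 1.47.

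**Figure D3:**
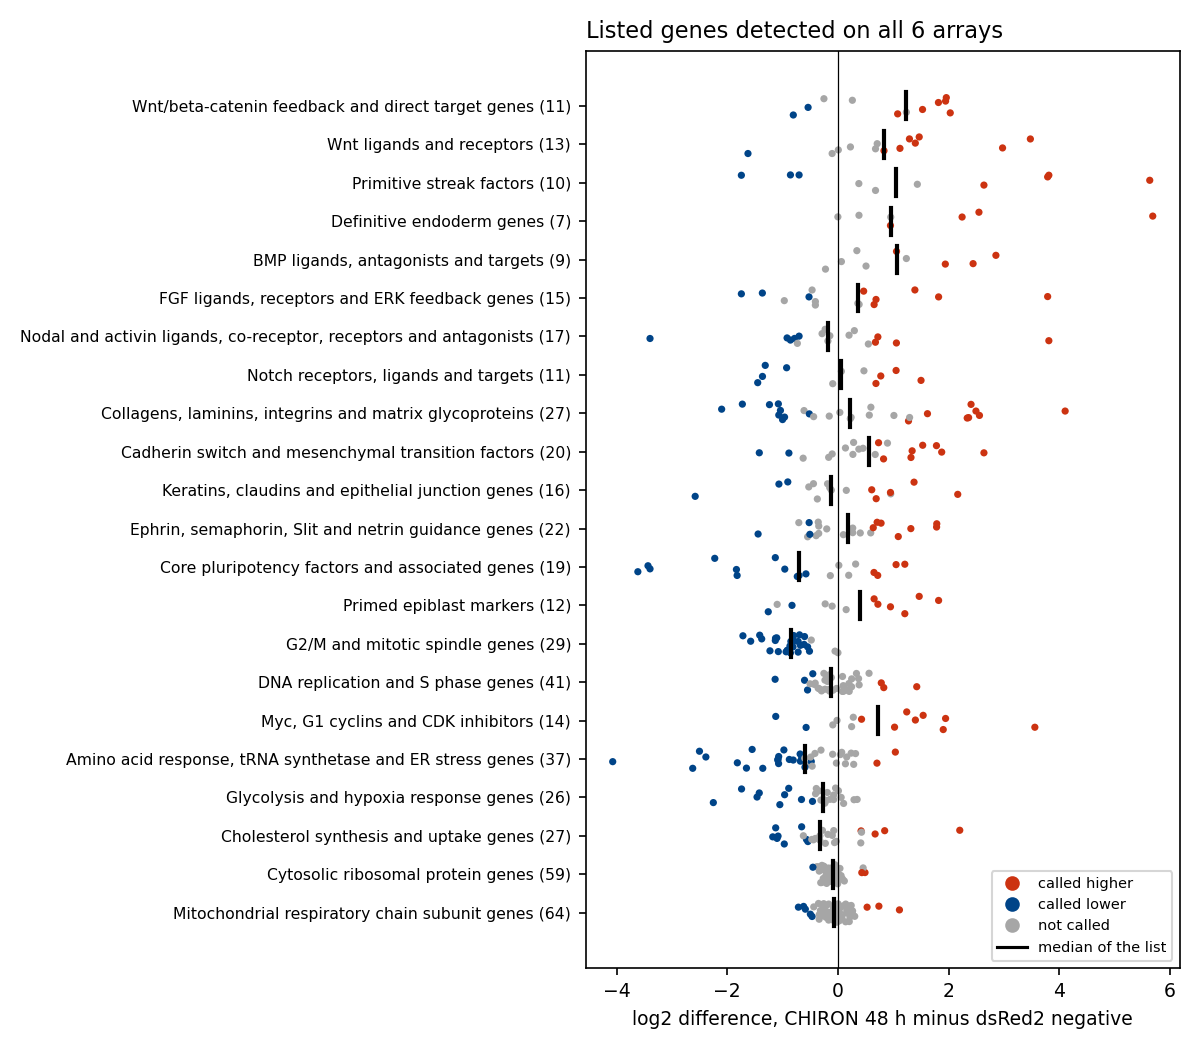
Log2 difference between CHIRON and dsRed2 negative cells (x axis) of each listed gene detected on all 6 arrays, by list (y axis, number of genes in brackets); red and blue points were called higher and lower, grey points were not called, and black bars mark list medians. The G2/M list lies left of 0 with 26 of 29 genes called lower, the amino acid list has 20 of 37 called lower, and the ribosome and respiratory chain lists lie close to 0.

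Streak and organizer genes went both ways among those present in both groups, while others were detected in treated cells alone. Of 10 streak genes present on all arrays 4 rose and 3 fell, or 1 with median scaling, and 5 more were detected on the treated arrays alone. Of 5 organizer genes 2 rose and 2 fell (median 0.17), with 0 falls under median scaling and 1 without any 1 negative array, and 4 more were detected on treated arrays alone. Mixl1, a homeobox factor of the streak, was at 7.17, 7.36 and 8.85 on treated arrays and undetected on negative arrays, at least 8.34-fold higher. Gsc, the homeobox factor of the organizer, was at 10.39, 10.78 and 10.78 on treated and 4.22, 4.84 and 4.45 on negative arrays, of which 1 detected it, and its rise of 6.14 is of uncertain size. Evx1, a factor of the posterior streak, rose at least 10.9-fold and was highest on treated replicate 3, at 7.55, 7.51 and 9.48. Mesp1, a factor of the earliest mesoderm, showed the opposite order, at 7.24, 7.22 and 5.56 and at least 3.83-fold higher. Chrd, the BMP antagonist chordin of the organizer, was likewise lower on replicate 3, at 8.94, 8.78 and 7.16 against 6.26, 6.61 and 6.19 on negative arrays, and rose by 1.94 ± 0.42 (adjusted p = 0.00761). The T-box factor Eomes rose at least 2.52-fold, to 5.87, 5.81 and 6.53. Snai1, the repressor of E-cadherin in the streak, was at 7.99, 7.84 and 8.05 against 5.34, 5.24 and 5.39 and rose by 2.64 ± 0.12 (adjusted p = 6.11e-06; second probe 0.67).

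Of 7 definitive endoderm genes present on all arrays 4 rose and 0 fell, and 7 more were detected on the treated arrays alone. Foxa2, a forkhead factor shared by endoderm and axial mesoderm, was at 7.93, 8.11 and 6.61 on treated arrays, lowest on replicate 3, and rose at least 7.02-fold. Hhex, a homeobox factor of anterior endoderm, was at 9.59, 9.58 and 8.85 against 6.59, 7.01 and 6.78 and rose by 2.55 ± 0.22 (adjusted p = 0.000135). Foxa3 rose by 2.24. Cxcr4, the chemokine receptor used to sort definitive endoderm, was at 8.66, 8.70 and 8.19 on treated arrays and at 4.41, 4.86 and 4.66 on negative arrays, of which 1 detected it, so that the size of its rise is uncertain (adjusted p = 6.11e-06). Cer1, a secreted antagonist of Nodal and BMP, was at 8.38, 8.25 and 6.05, at least 7.09-fold higher with its lowest value on replicate 3. Tmprss2, a serine protease of endodermal epithelia, was at 9.58, 9.48 and 8.65 against 4.94, 4.93 and 4.25, and Spink1, a trypsin inhibitor, at 11.92, 11.88 and 11.93 against 4.70, 5.36 and 4.69, the latter detected on 1 negative array. Gata4 was barely above background, at 5.02, 5.12 and 4.88 and at least 1.21-fold higher. For all the endoderm genes named here the treated arrays lay above the negative arrays, as they did for 26.9% of all genes tested. These genes were named for small p-values or after their values were seen. Several passed the detection filter only through treated cells, so their order was close to fixed beforehand. Of the 7 listed endoderm genes present on all arrays 3 were not called.

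Digestive and secreted protein genes went both ways. Apoa1, an apolipoprotein of gut and liver, was at 7.72, 7.94 and 8.15 on treated arrays and rose at least 9.2-fold (adjusted p = 3.14e-06). Apoc1, at 6.19, 6.27 and 6.16 on treated and 9.54, 8.61 and 9.58 on negative arrays, fell by 3.04 ± 0.25 (adjusted p = 0.0001), and Apoe, the apolipoprotein E gene, was at 8.87, 8.82 and 7.96 against 10.99, 10.06 and 10.57, a difference of −1.99. The alpha-defensin genes encode antimicrobial peptides of Paneth cells of the small intestine. Of those listed, 0 were detected on all 6 arrays, and 5 on all 3 treated arrays and no negative array. These 5 passed the detection filter only through treated cells, so their number is a description of detection. Defcr-rs2 was at 8.75, 8.91 and 11.15 on treated arrays and at least 29.2-fold higher, Defcr6 at 8.19, 8.55 and 10.67 and at least 21.1-fold higher, and Defa31 at 9.42, 9.68 and 12.03 against 4.37, 5.28 and 4.64. On all 3 of these genes treated replicate 3 exceeded treated replicates 1 and 2. Alpha-defensins are near-identical copies, so the probes may share signal and the number of separate genes is uncertain.

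Of 6 genes of the posterior growth zone present on all arrays 4 rose and 0 fell, and 6 more were detected on treated arrays alone. Of 6 retinoic acid genes on all arrays 3 rose and 3 fell, or 1 with median scaling. Fgf8, a growth factor of the streak and tail bud, was at 10.40, 10.56 and 9.98 on treated and 5.96, 6.52 and 7.08 on negative arrays and rose by 3.79 ± 0.28 (adjusted p = 5.78e-05). Cyp26a1, the enzyme that breaks down retinoic acid at the posterior end, was at 10.70, 10.37 and 10.65 against 5.26, 5.87 and 5.30, with a rise of 5.10 ± 0.19 (adjusted p = 2.19e-06; second probe 3.41). Each treated array lay above all negative arrays for both genes. Cdx2, a homeobox factor of the caudal body, was at 7.89, 7.74 and 8.87 and rose at least 10.8-fold, and Nkx1-2, a factor of caudal progenitors, rose at least 2.31-fold. Crabp2, a retinoic acid-binding protein, rose by 0.75. The nuclear receptors Rxra (−1.51) and Rarg (−0.89) were lower, and the call of Rarg was lost with median scaling (adjusted p = 0.058).

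Of 39 Hox genes listed, 1 was detected on all 6 arrays and was not called, and 8 were detected on all 3 treated arrays and no negative array. These 8 passed the detection filter only through the treated cells, so their number is a description of detection. Hoxb1, the first of its cluster to be switched on in the streak, was at 6.89, 6.65 and 5.69 on treated arrays and at least 3.19-fold higher, with its lowest value on replicate 3. Hoxb7 had the reverse order, at 5.02, 5.37 and 6.45, and Hoxc6 was at 5.52, 5.86 and 7.65. Both were highest on treated replicate 3. The call of Hoxc6 was lost under 4 of 17 alternatives, among them the omission of negative replicate 1 (adjusted p = 0.06), and that of Hoxb7 under 2 of 17.

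Some genes of mesoderm past the streak rose and others varied between the treated arrays. Of 3 paraxial genes present on all arrays 1 rose and 1 fell, and 2 more were detected on treated arrays alone. Of 4 lateral mesoderm, heart and vessel genes 1 rose and 0 fell, with 0 to 2 rises over the alternatives. A further 7 of that list were detected on treated arrays alone and passed the detection filter only there. Pdgfra, a receptor of mesoderm, was at 6.45, 6.47 and 6.28 and at least 3.17-fold higher, and Msx1, a homeobox target of BMP, was at 7.66, 7.58 and 9.03 and at least 10.2-fold higher. Foxc1, of paraxial mesoderm, was at 6.84, 6.89 and 6.63 against 4.36, 4.64 and 4.81. Tbx6, the factor of presomitic mesoderm, was at 7.35, 7.33 and 5.19 on treated and 5.38, 5.11 and 5.07 on negative arrays, so that replicate 3 lay within the range of negative cells. Its difference of 1.44 was not called (adjusted p = 0.0563), and without treated replicate 3 it was 2.12 (adjusted p = 2.24e-05). It was also called with all 9 arrays fitted, median scaling or array weights (adjusted p = 0.0298, 0.0071 and 0.00057). Tcf15, another factor of paraxial mesoderm that epiblast cells express too, was lower by 1.53 (difference −1.53, adjusted p = 0.0019). Isl1, of lateral mesoderm, was at least 2.63-fold higher.

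BMP signalling genes rose where they changed, with 4 of 9 called higher and 0 lower (median 1.06). The Id genes, direct targets of BMP, were among them, with Id1 at 8.89, 8.97 and 9.21 on treated and 5.95, 6.39 and 6.17 on negative arrays. Id1 rose by 2.86 ± 0.16 (adjusted p = 1.38e-05) and Id3 by 2.44, without overlap between groups. The ligand gene Bmp7 rose by 1.06. Bmp4 was at 8.93, 9.01 and 10.73 against 8.02, 8.70 and 8.24, all treated arrays higher, but its replicate 3 stood apart and the difference was not called (adjusted p = 0.0574). Without treated replicate 1, 2 or 3 it was called (adjusted p = 0.0362, 0.0434 and 0.031), with differences of 1.56, 1.51 and 0.65, as it was in 4 other of the alternatives.

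Nodal and activin pathway genes split, with 4 of 17 called higher and 5 lower, or 1 lower with median scaling and 3 without any 1 negative array. Fst, the secreted antagonist of activin, was at 10.17, 9.92 and 9.50 on treated and 4.97, 6.83 and 6.35 on negative arrays and rose by 3.81 ± 0.43 (adjusted p = 0.000398). Lefty2, a Nodal antagonist, rose by 1.06, while Lefty1 overlapped between groups (−0.15, adjusted p = 0.744). The ligand gene Nodal was at 9.66, 9.75 and 10.10 against 10.60, 10.62 and 10.86 and lower by 0.86 ± 0.16 (difference −0.86, adjusted p = 0.00368), a call lost with median scaling (adjusted p = 0.0738). Gdf3, a related ligand of pluripotent cells, was at 5.36, 5.61 and 4.92 against 8.65, 8.63 and 8.79 and fell by 3.40 ± 0.18 (adjusted p = 1.21e-05). All negative arrays exceeded the treated ones for both ligands.

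FGF genes also went both ways, with 6 of 15 called higher and 3 lower. These counts were 4 and 2 without treated replicate 1 and 4 and 3 without negative replicate 3. They were 7 and 3 without treated replicate 3. Besides Fgf8, Fgf10, a growth factor of mesoderm, was detected on treated arrays alone at 7.81, 7.86 and 8.74, at least 10.6-fold higher, though its other probes differed by 0.76 and 3.93. Spry4, an inhibitor of the pathway that the pathway induces, rose by 1.39. Fgf17 was at 5.94, 5.78 and 6.20 on treated and 7.82, 7.62 and 7.72 on negative arrays, lower by 1.75 (difference −1.75, adjusted p = 0.000117). Etv5 and Etv4, related ETS factors induced by FGF, moved apart, Etv5 at −1.37 (adjusted p = 0.000157) and Etv4 at 0.65 (adjusted p = 0.00687). Among Notch genes 4 of 11 rose and 4 fell. The target Hes1 was at 9.89, 9.84 and 9.83 against 8.80, 8.84 and 8.76 and rose by 1.05 ± 0.11 (adjusted p = 0.000365), and Notch4 rose by 1.5. The receptor gene Notch3 (−1.45), the ligand gene Jag2 (−1.31) and Dtx1 (−1.36) were lower, and Notch1 differed by −0.09 (adjusted p = 0.73). The count of Notch genes that rose was 2 without negative replicate 1 or 2.

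Matrix genes changed in composition, with 8 of 27 called higher and 9 lower. The type IV collagen genes Col4a1 and Col4a2, a pair of basement membrane chains, rose by 2.5 ± 0.20 (adjusted p = 9.7e-05) and 2.34 ± 0.26 (adjusted p = 0.000378). Col4a1 was at 9.85, 9.96 and 10.24 on treated and 7.16, 7.89 and 7.52 on negative arrays, without overlap. Among laminin chains Lama1 rose by 2.49, while Lama5 (−1.08), Lamb2 (−1.07) and Lamc1 (−0.96) were lower. Lama1 was at 7.35, 7.49 and 8.02 against 5.53, 5.35 and 4.51, and Lamc1 at 8.78, 8.64 and 8.85 against 9.80, 9.71 and 9.64, both without overlap. The laminin receptor genes Itga3 (−2.10, adjusted p = 0.00129) and Itgb4 (−1.73, adjusted p = 0.000373) were lower, as was Itgb5, an integrin of the vitronectin receptor (−1.0). For fibronectin, Fn1, the brightest probe rose by 2.36 and the others differed by 0.34 and 0.73, and for perlecan, Hspg2, probes went both ways (−1.24, −1.19 and 1.11; mean of probes −0.44, adjusted p = 0.138).

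In the list of cadherins and mesenchymal transition factors 8 of 20 rose and 2 fell, or 1 without treated replicate 1 or negative replicate 3. Cdh1, the E-cadherin gene, was at 8.50, 8.73 and 7.80 on treated and 9.23, 8.91 and 8.78 on negative arrays and was not called (adjusted p = 0.0726), and Cdh2, N-cadherin, was near background on all arrays (0.16, adjusted p = 0.429). Cdh1 was called lower without treated replicate 2 or with all 9 arrays fitted (adjusted p = 0.0369 and 0.0437). Another cadherin gene, Cdh3, was called lower (−1.42, second probe −1.24), a call lost under 7 of 18 alternatives. Neither Cdh1 nor Cdh2 passed the test over all 6 arrays, while Snai1 rose. Zeb1 (−0.17) and Twist1 (−0.10) were not called either, with Twist1 at −0.63 without treated replicate 3 (adjusted p = 0.00798). Mmp14, a membrane matrix protease, rose by 1.78, Tgfb1 by 1.32 and Tgfb2 by 1.88. Of epithelial genes 5 of 16 rose and 3 fell, the former 3 without treated replicate 1 or 2 or negative replicate 3. The simple-epithelium keratins Krt8 and Krt7 rose by 1.38 and 2.17, and the claudin gene Cldn3, of tight junctions, was lower at 6.21, 5.95 and 5.20 against 8.93, 7.93 and 8.24 (difference −2.58, adjusted p = 0.000573).

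Guidance receptors and ligands, which steer migrating cells and axons, numbered 22 on all arrays, of which 7 rose and 3 fell, or 1 with median scaling. Efnb1, an ephrin ligand, was at 7.56, 7.56 and 7.53 on treated and 5.69, 5.81 and 5.80 on negative arrays and rose by 1.78 ± 0.12 (adjusted p = 3.48e-05). Sema3f rose by 1.79, and Nrp1, a receptor shared by semaphorins and VEGF, was at 8.76, 8.69 and 10.04 against 4.29, 5.06 and 4.76, highest on treated replicate 3. Slit2 rose at least 8.99-fold by its brightest probe, with a second at 0.58. Plxnb2, a semaphorin receptor, was lower (−1.44, adjusted p = 0.000164).

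Pluripotency genes fell, with 11 of 19 called lower and 4 higher, and a median of −0.70. Pou5f1, the OCT4 gene, was at 10.45, 10.51 and 9.32 on treated and 11.75, 12.11 and 11.89 on negative arrays, lower by 1.82 ± 0.30 (difference −1.82, adjusted p = 0.00223) and lowest on treated replicate 3. Dppa4 was at 7.06, 6.91 and 7.09 against 9.11, 9.20 and 9.44 (−2.23), and Sox2, the SOX partner of OCT4, at 5.81, 5.72 and 5.69 against 6.75, 6.81 and 6.54 (−0.96). All 3 stayed detected on every treated array. Sall4, a zinc finger factor of the same network, went the other way, at 11.31, 11.62 and 10.75 against 10.11, 10.08 and 10.33 (1.05, adjusted p = 0.00614). Without treated replicate 1 or 2 the number of pluripotency genes that rose was 1, and without any 1 negative array it was 2, and the calls of Otx2 and Sall1 were among those lost. Dppa5a, a marker of naive cells, was at 5.72, 5.55 and 5.70 on treated and 9.56, 9.18 and 10.76 on negative arrays and fell by 4.18 ± 0.35 (adjusted p = 0.000117).

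Genes that mark the primed epiblast were divided, with 6 of 12 called higher and 2 lower. The number that rose was 4 without treated replicate 1 or 2 or negative replicate 3, and 7 without treated replicate 3. Fgf5, the classical marker, was at 10.26, 10.52 and 9.89 on treated and 8.20, 8.88 and 8.14 on negative arrays and rose by 1.82 ± 0.24 (adjusted p = 0.000755). Enpp2, the autotaxin gene, was at 4.98, 4.67 and 5.0 against 8.96, 7.67 and 8.34, and Pou3f1, a POU factor of the anterior epiblast, was lower by 1.26 (difference −1.26). Dnmt3b, the de novo DNA methyltransferase typical of these cells, was at 13.04, 12.87 and 12.06 against 12.57, 12.62 and 12.33 and not called (adjusted p = 0.668), and without treated replicate 3 it was higher by 0.47 (adjusted p = 0.0339). Tet1, an enzyme that oxidizes methylcytosine, was at 7.22, 6.87 and 6.59 against 8.37, 8.84 and 8.34, a fall without overlap (−1.62, adjusted p = 0.000666). Of neural factors, Irx3 rose by 3.22 and Irx5 at least 5.84-fold, and Sox21 was at 8.78, 8.78 and 7.93 against 4.49, 4.34 and 4.75 (second probe 0.90), whereas Sox3, a SoxB1 factor of neural progenitors, was at least 1.91-fold lower and below detection on all treated arrays.

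Genes of mitosis were lower almost throughout. Of 29 G2/M genes detected on all arrays 26 were called lower and 0 higher, with a median of −0.85, and 14 were lower with median scaling. The median difference of the list from negative cells was −0.62, −0.68 and −1.15 on treated replicates 1, 2 and 3 and between −0.06 and 0.14 on the negative arrays. Every treated array thus lay below every negative array, and replicate 3 was the lowest. Mki67, the Ki-67 proliferation antigen, was at 8.25, 8.02 and 7.31 on treated and 9.32, 9.27 and 9.12 on negative arrays, lower by 1.38 ± 0.23 (difference −1.38, adjusted p = 0.00237). Prc1, an organizer of the central spindle, was at 11.10, 11.03 and 10.61 against 12.27, 11.90 and 11.97 (−1.13, adjusted p = 0.0016). Cenpf, a kinetochore protein, was at 5.90, 5.44 and 5.06 against 7.49, 7.12 and 6.53 (−1.58, adjusted p = 0.00308; second probe −0.47). Further falls were those of Nusap1, which bundles spindle microtubules (−1.72), Pttg1, the securin gene (−1.41), and Cdc20, an activator of the anaphase-promoting complex (−0.87). Not called were Ndc80 (−0.48), Birc5 (0.00) and Kif23 (−0.05). The other probes of Kif23 were lower (−0.66 and −0.49, adjusted p = 0.00943 and 0.0209), and it was called lower with the mean of probes or all 9 arrays (adjusted p = 0.0366 and 0.0091).

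**Figure D4:**
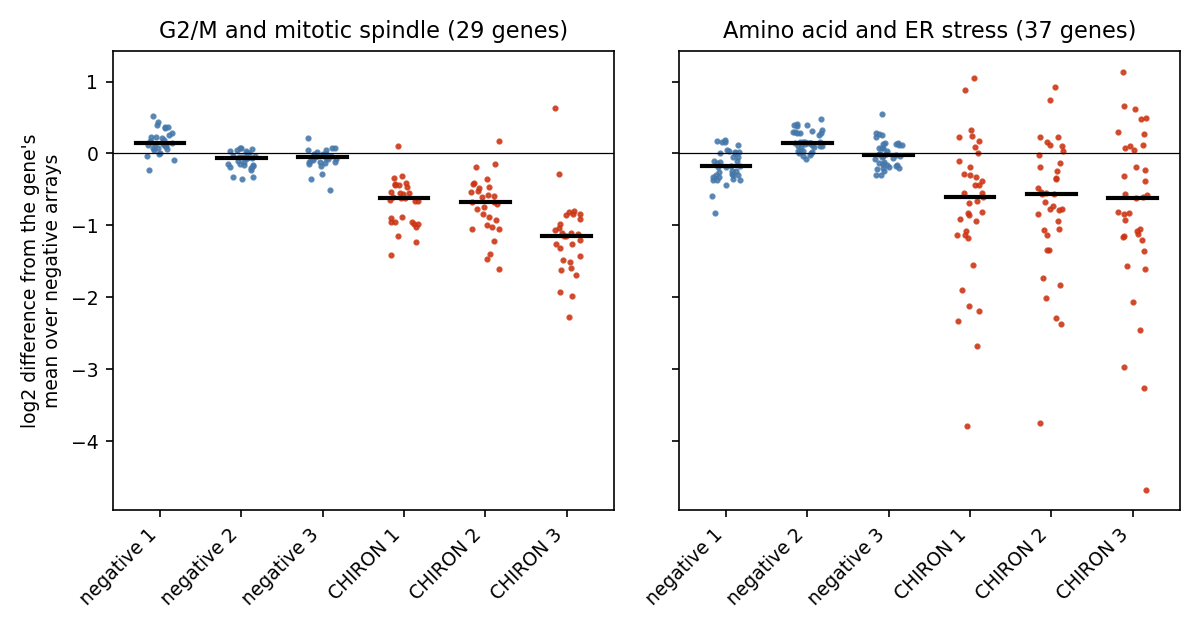
Log2 difference of each gene from its mean over the 3 dsRed2 negative arrays (y axis) on each array (x axis), for 29 G2/M and 37 amino acid and ER stress genes detected on all 6 arrays; points are genes and black bars the medians per array. The G2/M medians are −0.62, −0.68 and −1.15 and the amino acid medians −0.60, −0.57 and −0.62 on CHIRON replicates 1, 2 and 3.

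Many mitotic promoters carry the CHR element, a word through which the DREAM complex silences these genes outside G2 and M, and a nearby CCAAT box bound by NF-Y. Windows of 3 mitotic genes that fell are shown because they illustrate this shared word (RefSeq, GRCm38.p6, 5′ to 3′ along each gene). Capitals mark TTTGAA. They are Cenpf (chr1:189688037-189688336, minus strand; word at 3 to 8 after the start), Mki67 (chr7:135716330-135716629, minus strand; words at −116 to −111 and −98 to −93) and Prc1 (chr7:80294201-80294500, plus strand; word at −5 to 1).
Cenpf: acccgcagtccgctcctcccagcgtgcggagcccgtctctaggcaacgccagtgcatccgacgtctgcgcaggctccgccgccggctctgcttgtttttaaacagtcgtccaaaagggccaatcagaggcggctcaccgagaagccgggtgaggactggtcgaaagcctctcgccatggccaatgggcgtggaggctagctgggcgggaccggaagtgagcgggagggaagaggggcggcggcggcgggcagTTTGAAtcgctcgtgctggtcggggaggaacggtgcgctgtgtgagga
Mki67: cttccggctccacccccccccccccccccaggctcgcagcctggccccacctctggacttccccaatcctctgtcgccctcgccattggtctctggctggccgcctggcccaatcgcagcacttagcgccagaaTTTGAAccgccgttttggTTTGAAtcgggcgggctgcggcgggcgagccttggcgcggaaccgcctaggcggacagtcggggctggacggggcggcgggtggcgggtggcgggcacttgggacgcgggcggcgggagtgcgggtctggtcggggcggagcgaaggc
Prc1: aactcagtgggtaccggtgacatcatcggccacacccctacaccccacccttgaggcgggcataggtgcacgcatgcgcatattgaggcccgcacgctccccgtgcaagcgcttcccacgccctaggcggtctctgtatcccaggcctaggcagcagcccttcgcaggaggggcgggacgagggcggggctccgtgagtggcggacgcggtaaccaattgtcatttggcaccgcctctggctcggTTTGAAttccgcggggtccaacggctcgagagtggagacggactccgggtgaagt
Of the 21 G2/M genes called lower with a window, 17 held TTTGAA on either strand (TTCAAA on the other), or 81%. The NF-Y word CCAAT, also searched on both strands, was in 18 of them, or 85.7%. Over all 25 G2/M genes tested with a window, 80% held each word. TTTGAA was in 11.5% of windows of all tested genes and in 18.1% of all windows, and in 14% of windows of genes called lower. CCAAT was in 39% of windows of tested genes. None of the words in capitals overlapped one of the other motifs searched. The list was built from genes of mitosis and the word is known from such genes, so its frequency describes the list whether or not a member fell.

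Of 41 DNA replication genes 3 were called higher, 4 lower (1 with median scaling) and 34 in neither direction (median −0.12). Ccne2, a cyclin of S phase entry, was at 6.98, 6.75 and 7.06 on treated and 5.53, 5.80 and 5.19 on negative arrays and rose by 1.42 ± 0.18 (adjusted p = 0.000666), and Fen1, the flap endonuclease, rose by 0.83. Pold1, a subunit of DNA polymerase δ, was lower (−1.14, adjusted p = 0.00524). Without treated replicate 3 the number that rose was 7, and without any 1 negative array the number that fell was 1 or 2. Of G1 regulators and Myc genes 8 of 14 rose and 2 fell, 1 of these without treated replicate 1 or 2 or negative replicate 1 or 2. They included cyclins that promote entry into S phase and inhibitors that oppose it. Ccnd2, cyclin D2, was at 10.25, 9.97 and 11.54 against 8.29, 9.12 and 8.64 and rose by 1.90 (other probes 0.92 and 1.94). Among the inhibitors, Cdkn2a, which encodes p16 and p19Arf, was at 8.41, 8.65 and 9.96 against 5.32, 5.77 and 5.25 and rose by 3.56 ± 0.37 (adjusted p = 0.000294), with its other probes at 4.12 and 2.56, and Cdkn1c, p57, rose by 1.24. Mycl rose by 1.54 while Myc was near background and not called (0.19, adjusted p = 0.614), and Rb1, the retinoblastoma gene, was lower (−1.12). Rgcc, a regulator of cell cycle progression, was at 5.19, 4.96 and 5.35 on treated and 11.30, 9.90 and 10.06 on negative arrays, the fall with the greatest size among genes on all arrays (−5.26 ± 0.34, adjusted p = 3.33e-05).

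Of 26 p53 response and apoptosis genes 2 rose and 7 fell. Gadd45b, a stress-induced gene of growth arrest, was at 6.45, 6.43 and 7.44 on treated and 9.46, 9.57 and 9.35 on negative arrays and fell by 2.69 ± 0.26 (adjusted p = 0.000213). Bbc3, the PUMA gene, was lower by 1.51 (difference −1.51; other probes −0.66 and −0.39), and Bid, another BH3 protein, rose by 1.19. For Ccng1, cyclin G1, 2 probes were lower (−1.49 and −1.60) and 1 higher (0.94). Cdkn1a, the p21 gene that p53 induces, was higher at 11.28, 11.31 and 12.30 against 10.43, 10.71 and 10.69 (1.02, adjusted p = 0.0166). Its call did not hold once negative replicate 1 was omitted (0.93, adjusted p = 0.0611), when 1 gene of the list rose, or with no filter on detection (adjusted p = 0.0717).

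Genes of amino acid supply and the integrated stress response fell. This response raises translation of the factor ATF4, which activates transporters, amino acid synthesis and tRNA synthetases. Of 37 listed genes on all arrays 20 were lower and 2 higher (median −0.60), and 13 were lower with median scaling. The list medians were −0.60, −0.57 and −0.62 on treated replicates 1, 2 and 3 and −0.17 to 0.15 on negative arrays, so that here replicate 3 did not stand apart. Chac1, a glutathione-degrading enzyme and ATF4 target, was at 7.24, 7.27 and 6.31 on treated and 8.74, 9.85 and 10.11 on negative arrays and fell by 2.63 ± 0.38 (adjusted p = 0.00126). Pycr1, of proline synthesis, was at 4.89, 5.20 and 5.12 against 7.47, 7.68 and 7.57 (−2.5 ± 0.14, adjusted p = 1.23e-05). Asns, asparagine synthetase, was at 11.04, 10.87 and 10.64 against 12.23, 12.24 and 12.16 (−1.36, adjusted p = 0.000279). All negative arrays lay above all treated arrays for these 3 genes. The factors Atf4 (−1.07), Ddit3, which encodes CHOP (−1.82), and Trib3, a pseudokinase that CHOP and ATF4 induce (−2.39), were lower too. Slc7a3, a carrier of cationic amino acids, was at 8.0, 8.05 and 7.12 against 11.91, 11.71 and 11.76 and lower by 4.07 by its brightest probe, but its second probe differed by −0.65. Serine pathway genes Psat1 (−1.08), Phgdh (−0.98) and Mthfd2 (−1.09) were lower, as was the synthetase gene Aars (−0.81), whose call was lost with median scaling (adjusted p = 0.058). Chaperones of the endoplasmic reticulum did not follow, with Hsp90b1 at −0.03 (adjusted p = 0.892) and Dnajb9 at 0.04 (adjusted p = 0.902), and Xbp1, a factor of the unfolded protein response, rose by 1.04 (adjusted p = 0.00158).

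The windows of Chac1, Pycr1 and Asns are shown because each holds the composite word of CHOP and ATF4, TGATGNAA, in capitals (RefSeq, GRCm38.p6, 5′ to 3′ along each gene). They are Chac1 (chr2:119350992-119351291, plus strand; word on the other strand at −193 to −186), Pycr1 (chr11:120643699-120643998, minus strand; −103 to −96) and Asns (chr6:7693160-7693459, minus strand; −23 to −16).
Chac1: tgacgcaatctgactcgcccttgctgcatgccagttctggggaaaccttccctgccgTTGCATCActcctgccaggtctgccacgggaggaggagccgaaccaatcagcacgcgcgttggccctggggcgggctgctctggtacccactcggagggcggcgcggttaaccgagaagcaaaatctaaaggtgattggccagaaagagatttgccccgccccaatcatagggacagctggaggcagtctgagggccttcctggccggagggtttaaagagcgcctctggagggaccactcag
Pycr1: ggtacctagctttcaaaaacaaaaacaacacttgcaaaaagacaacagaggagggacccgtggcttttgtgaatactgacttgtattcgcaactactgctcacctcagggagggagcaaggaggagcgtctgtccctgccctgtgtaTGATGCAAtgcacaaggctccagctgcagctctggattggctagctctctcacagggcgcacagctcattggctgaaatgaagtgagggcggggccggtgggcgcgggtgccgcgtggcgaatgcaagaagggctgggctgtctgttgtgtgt
Asns: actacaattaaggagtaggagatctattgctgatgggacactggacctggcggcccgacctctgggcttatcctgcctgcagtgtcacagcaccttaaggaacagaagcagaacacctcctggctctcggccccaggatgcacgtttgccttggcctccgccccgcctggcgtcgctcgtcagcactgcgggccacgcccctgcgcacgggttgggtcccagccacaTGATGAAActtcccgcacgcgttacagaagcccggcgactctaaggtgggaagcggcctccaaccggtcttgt
On either strand (TTNCATCA on the other) the word was in 8 of 20 windows of listed genes that fell, or 40%, and in 12 of 38, or 31.6%, of listed genes tested. It was in 2.06% of windows of all tested genes and in 4.06% of all windows. The list holds many known ATF4 targets, so this frequency too describes the list.

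In energy and lipid metabolism no gene of 26 for glycolysis and hypoxia rose and 9 fell. Without negative replicate 1 or 3 the falls numbered 4 and 5, and without treated replicate 3 there were 2 rises. Pdk1, the kinase that keeps pyruvate from mitochondria, was at 6.88, 6.96 and 5.98 on treated and 8.78, 8.0 and 8.26 on negative arrays (−1.74, adjusted p = 0.00242), and Eno3, an enolase, at 7.48, 7.71 and 7.57 against 8.98, 9.0 and 9.16 (−1.46, adjusted p = 0.000143). Ldha, lactate dehydrogenase, overlapped between groups (0.35, adjusted p = 0.288) and was higher by 0.65 without treated replicate 3 (adjusted p = 0.0124) and by 0.59 with array weights (adjusted p = 0.016). Of 27 cholesterol genes 8 fell and 4 rose, with 4 falls under median scaling. Srebf2, the master factor of cholesterol synthesis, was at 8.23, 8.44 and 8.14 against 9.39, 9.27 and 9.39 (−1.08, adjusted p = 0.00058), and the enzymes Mvd (−1.10) and Pmvk (−1.18) were lower. Hsd17b7, another enzyme of the pathway, rose by 2.20 (second probe 1.09). Ribosomal and respiratory genes had medians close to 0. Of 59 cytosolic ribosomal protein genes 2 rose and 1 fell (median −0.08), and of 64 respiratory chain genes 3 rose and 5 fell (median −0.06). The number of respiratory chain genes that fell ranged over the alternatives from 0 with median scaling to 12 with no background correction, and was 3 without treated replicate 2 or negative replicate 1 and 2 without negative replicate 3. The number that rose ranged from 2 to 8, the latter with the deposited values. For ribosomal protein genes 0 to 7 fell, most with trend and robust variance estimation, and 0 to 3 rose; none fell without treated replicate 1 or negative replicate 1 or 3, and none rose without treated replicate 2. Among 13 housekeeping genes 9 were not called, Gapdh (−0.08) and Tbp (0.01) among them. Hprt, often used as a reference, was at 8.26, 8.31 and 7.37 on treated and 10.17, 10.34 and 10.25 on negative arrays and fell by 2.27 ± 0.24 (adjusted p = 0.000326; second probe −1.29).

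Several more genes were among the 15 largest falls on all arrays. Ramp3, a partner of the calcitonin receptor family, was at 5.63, 5.92 and 4.99 on treated and 9.60, 9.31 and 9.07 on negative arrays (−3.81 ± 0.25, adjusted p = 3.33e-05; other probes −2.83 and −3.51). Apobec1, a cytidine deaminase that edits RNA, was at 5.58, 5.50 and 5.74 against 9.35, 9.07 and 9.38 (−3.66 ± 0.14, adjusted p = 2.32e-06). For both genes all treated arrays lay below all negative arrays, and Ramp3 was lowest on treated replicate 3. The factor gene Mef2b (−3.26), the organic anion carrier Slco4a1 (−3.01), the phosphodiesterase Pde1b (−2.94), the growth factor Pdgfb (−2.93) and the insulin-like gene Insl6 (−2.87) completed the falls of greatest size. Of immediate early genes, which respond within minutes to stimuli, 4 of 11 fell and 0 rose, and 7 fell without treated replicate 3. Zfp36, which destabilizes mRNAs, was at 7.52, 7.54 and 8.28 against 9.59, 9.63 and 9.53 (−1.80, adjusted p = 0.000444), and Fos at 5.45, 5.20 and 6.23 against 9.18, 8.14 and 6.69, where the negative arrays themselves spread widely (−2.38, adjusted p = 0.0108; 0.0648 with no filter on detection).

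Treated replicate 3 differed from the other treated arrays on a particular set of genes. Ccn2, the connective tissue growth factor and a target of YAP and SRF, was at 9.54, 9.39 and 12.12 on treated and 13.25, 13.09 and 13.27 on negative arrays, lower by 2.85 (difference −2.85, adjusted p = 0.00804; 0.0526 with no filter on detection), with replicate 3 between the others and the negative arrays. Acta2, smooth muscle actin, was at 10.25, 10.27 and 12.87 against 9.25, 10.64 and 9.80, so that replicates 1 and 2 lay within the range of negative cells and replicate 3 above it (adjusted p = 0.183). Eras and Mgarp had the opposite shape. Eras, a RAS protein of pluripotent cells, was at 8.55, 8.58 and 6.0 against 6.75, 7.14 and 7.12, not called over all arrays (adjusted p = 0.395) but higher by 1.56 without replicate 3 (adjusted p = 0.000182) and called with array weights (adjusted p = 0.0123), and Mgarp, a mitochondrial protein, was at 7.97, 8.06 and 5.38 against 8.13, 7.68 and 7.96. Foxq1, a forkhead factor, was high on all treated arrays and most on replicate 3, at 9.11, 9.33 and 11.55 against 4.75, 5.83 and 5.39 (4.67, adjusted p = 0.000706). Ccn4, a Wnt-induced matrix protein, was at 7.46, 7.71 and 9.97 against 4.79, 6.05 and 5.59 (2.90), and Tnc, tenascin, at 6.75, 6.90 and 9.16 against 4.79, 5.67 and 5.12, 1.59 higher without replicate 3 and 2.41 with it (adjusted p = 0.0122, a call lost under 3 of 18 alternatives). Pmp22, Vgll3 and Spsb1 were above all other arrays on replicate 3 alone, at 9.89, 8.60 and 8.74, and Slc27a2, a fatty acid carrier, was below them, at 5.10. Serpinf1, a secreted serpin, was at 8.57, 8.91 and 11.10 against 6.33, 7.79 and 7.03 (2.48, adjusted p = 0.0154; second probe −0.02), a call lost under 4 of 18 alternatives, among them the omission of negative replicate 1 or 3 (adjusted p = 0.0619 and 0.0531). Of 18 contractile and YAP or SRF target genes 7 were called lower, 12 without treated replicate 3 and 3 without any other array. The list median was −0.66 and −0.80 on treated replicates 1 and 2 and 0.23 on replicate 3.

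**Figure D5:**
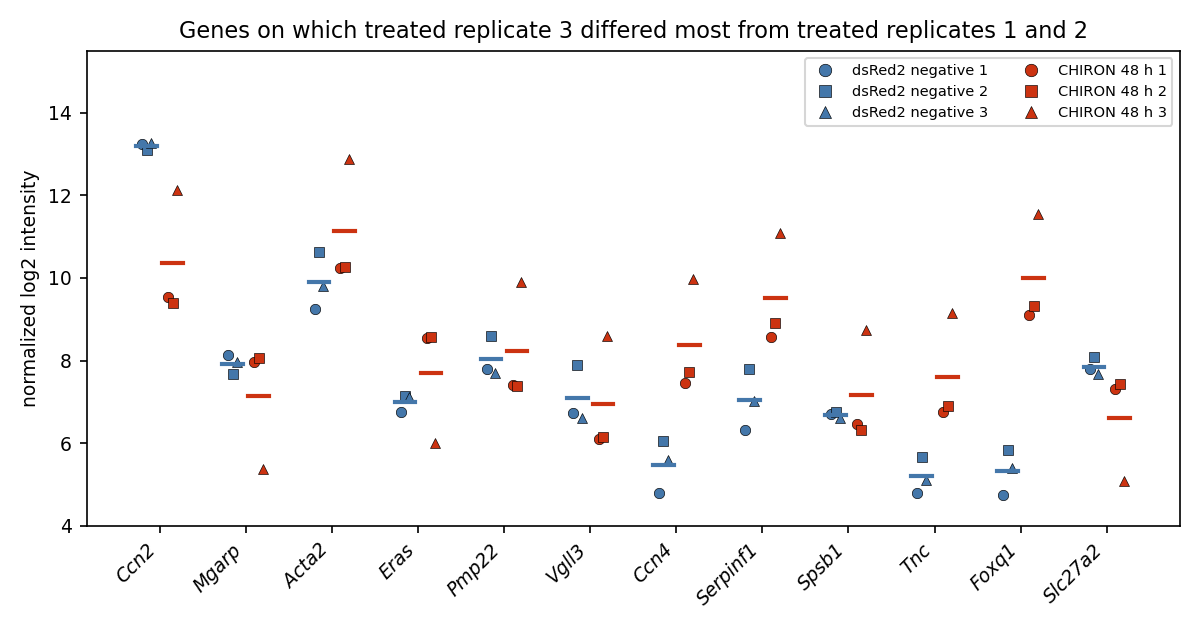
Normalized log2 intensity (y axis) of the 12 genes whose level on treated replicate 3 differed most from treated replicates 1 and 2 (x axis), on 3 dsRed2 negative arrays (blue) and 3 CHIRON arrays (red); symbols mark replicates and bars group means. Replicate 3 (triangles) is far from the other CHIRON arrays on each gene, for example 12.87 against 10.25 and 10.27 for Acta2.

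Markers of other cell types were summed too. Of 15 feeder and fibroblast markers 10 were detected on a treated and 8 on a negative array, and the summed linear level was 2436 to 10317 on treated and 1818 to 2650 on negative arrays, with Col1a2, Col3a1, Lum, Postn and Fap undetected on all arrays. Such a sum weighs bright genes most, and the list holds Acta2, which was highest on treated replicate 3. Of the 7 feeder and fibroblast markers detected on all 6 arrays 3 rose and 1 fell. In that list Col1a1, a fibrillar collagen, was at 7.70, 7.69 and 9.42 on treated and 4.83, 6.63 and 5.66 on negative arrays and Fbln2, fibulin-2, at 8.61, 8.74 and 9.42 against 5.40, 5.43 and 5.6, while Thy1 was lower (−2.40). Their part in the rise of some matrix genes and in the values of treated replicate 3 was not tested. Of 17 visceral and parietal endoderm markers 12 and 10 were detected in treated and negative cells, with sums of 5419 to 9038 against 3321 to 4086 and with Ttr, Afp, Apob, Cubn and Thbd undetected on all arrays. Of the 7 of these markers detected on all 6 arrays 4 rose and 0 fell, among them Col4a1, Col4a2 and Fst, while Lrp2, the megalin receptor, was at 4.81, 4.59 and 6.01 against 8.96, 8.27 and 7.80. Of 13 trophoblast markers 8 and 4 were detected, with sums of 1050 to 1542 against 606 to 646. Elf5, Gcm1, Prl3d1, Rhox6 and Rhox9 were undetected. Of the 3 trophoblast markers detected on all 6 arrays 2 rose and 1 fell. Of 16 naive embryonic stem cell markers 9 and 8 were detected, with sums of 1624 to 1910 against 1965 to 3061. Dppa3, Nr0b1, Prdm14, Tcl1, Tdh and Sox15 were undetected. Of the 5 naive markers detected on all 6 arrays 0 rose and 3 fell. Of 12 germ cell markers 6 and 5 were detected, with overlapping sums of 8217 to 9383 against 4971 to 10163. Dppa3, Prdm1, Prdm14, Dazl, Ddx4 and Piwil2 were undetected. Yet Kit, a receptor also found in endoderm, was at 9.42, 9.26 and 9.21 against 5.42, 4.78 and 5.19. Of the 4 germ cell markers detected on all 6 arrays 2 rose and 0 fell. Of 16 blood and endothelial markers 6 and 7 were detected, with sums of 524 to 897 against 439 to 454. Hba-a1, Gata1, Klf1, Tal1, Kdr, Cdh5 and Ptprc were undetected. Of the 2 blood and endothelial markers detected on all 6 arrays 1 rose and 0 fell.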

How the data were processed

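RNA of 3 CHIRON-treated and 3 dsRed2 negative samples was amplified, biotin-labelled and hybridized to one-colour Illumina bead arrays, per the labels. Per the file headers the deposited intensity is an average bead signal that was not normalized, and each has a deposited detection p-value. The authors also deposited log2 values, for which the submitters' processing notes name lumi (version and settings not given in the sources used here). These served as an alternative. Signals of 45281 probes were corrected by normexp from detection p-values (offset 16), quantile-normalized and log2-transformed (neqc, limma 3.58.1, R 4.3.3). Probes detected at p below 0.05 on at least 3 of 6 arrays were kept (18070). A gene was represented by whichever kept probe had the greatest mean. This gave 12555 genes, 3921 with several probes and 66 with probes called in opposite directions. Of 30869 symbols in the file 16219 were current, 5710 were updated through RefSeq, 8918 were kept and 22 had the form of dates.

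Differences were tested with limma (group only, two-sided, Benjamini-Hochberg over all genes at 0.05) and the code was tested on simulated data. For a minimum fold, the undetected group took on each array the lowest detected signal, or the signal of the probe itself where that was greater. Promoter windows are those of RefSeq. The members and lists were chosen with earlier results of these data known. Genes were named by a rule: 6 markers, the 15 largest rises and falls on all arrays, 10 bounds each way, up to 5 members per list by p, and 12 genes of treated replicate 3, leaving out unnamed models. Other list members (for example Wnt3, Cdh1, Pou5f1, Atf4 and Gapdh) were named after their values were seen.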

Additional observations from a re-analysis of the deposited data

How the results depend on the processing

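Over 18 alternatives the number of genes called ranged from 3458 to 5819, and 0 to 25 of the 4851 called genes had the opposite sign in a given alternative. Of the counts over all genes, only that of lower genes moved by over 1.5 times, and only with median scaling (1048 against 2375). Leaving out 1 array gave 3735 to 4857 calls, 1881 to 2505 higher and 1854 to 2352 lower. The replicate numbers were not taken to pair the groups, because the labels name no pairing. Deviations of same-numbered arrays from their group means correlated at 0.10, −0.15 and −0.04. Such deviations sum to 0 within each group of 3 arrays, so these values can neither show nor exclude pairing. With a replicate block 4364 genes were called, 2215 higher and 2149 lower. The call of Uhrf2 (0.42) reversed with the mean of probes (−0.083). For single genes 5451 outcomes kept their side of the threshold with no call reversed, 316 lost the call and 49 gained it. Those 5451 include genes called in neither fit whose sign changed, such as Spsb1 (−0.29 to 0.92 over the alternatives). For the lists 350 of their counts and medians moved and 1864 did not. The block ended the call of Uhrf2 (adjusted p = 0.0916) among others, and with it Wnt3, Tbx6, Cdh1, Bmp4 and Slc27a2 were called (adjusted p = 0.032, 0.0293, 0.0415, 0.0462 and 0.0493). With 3 arrays per group and signals near background for undetected genes, small differences of dim genes were not measurable.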
